A study of Mus musculus with 6 samples.

Results

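The lens capsule and basement membrane genes described here are 33 genes that encode chains of the capsule, the proteins that link them, and the receptors through which cells hold on to them. They were taken as every probe whose annotated symbol is one of the 33 genes, and 31 genes had at least 1 such probe, 63 probes in all among the 45281 on the array. No probe used here carried the symbol Lama3 or Frem2. Of the 63 probes, 37 from 25 genes were detected on at least 3 of 6 arrays and were tested. The lens RNA came from 3 samples of Tdrd7 null and 3 samples of Tdrd7 heterozygous mice at postnatal day 30, whose strain is a mix of C57BL/6J with C3A.Blia, each measured on 1 Illumina bead array. The heterozygous mice, which serve as controls, also carry the mutation on 1 of their Tdrd7 alleles, so lenses with both alleles intact were not compared. The labels give neither the nature of the Tdrd7 mutation nor whether the samples of a group are separate animals. Each p-value thus weighs a group difference against a spread among samples that may be technical and not between animals. Tdrd7 encodes a Tudor domain protein of RNA granules, and its loss is known to cause cataract. The arrays are numbered as in the raw table, null arrays being 4 to 6 and heterozygous arrays 1 to 3.

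A basement membrane is a sheet of matrix made of a laminin network and a collagen IV network, joined by nidogen and by heparan sulphate proteoglycans. The lens capsule is an unusually thick basement membrane that encloses the whole lens. It is laid down through life, mainly by the lens epithelium at the front and by fibre cells at the back, and it transmits the pull of the zonule fibres. Mutations in collagen IV, laminin and Fraser complex genes are known to disturb eye and lens development in mice.

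Levels are log2 intensities after background correction and normalization between arrays. A difference is the null mean minus the heterozygous mean on that scale, so that 1 stands for a 2-fold change. A probe was called detected on an array where its deposited detection p was under 0.05. Differences were tested with limma, two-sided, over all 14902 probes detected on at least 3 arrays, with Benjamini-Hochberg adjustment and a threshold of 0.05. Of these 14902 probes 0.174% passed, 0.047% as higher and 0.127% as lower in null lenses, which is 26 probes. On the series matrix values 35 passed with the replicate number of the labels as a block, and 9 without it. The number of probes detected ran from 14826 to 16204 on null arrays and from 12655 to 15640 on heterozygous arrays. Heterozygous array 2 and null array 5 stood apart: their best correlation with any other array was 0.946 and 0.962, against at least 0.981 for each of the other arrays. Tdrd7 itself was at 10.49, 9.65 and 10.18 on null arrays 4, 5 and 6 and at 14.06, 13.74 and 14.17 on heterozygous arrays 1, 2 and 3, a difference of −3.88 ± 0.26 (SE, limma adjusted p = 0.00139). As for the tissue, all 14 lens fibre markers with a probe were detected on at least 1 array, and 12 of 16 lens epithelium markers were, the others being Sfrp2, Lhx2, Mab21l1 and Npnt, the last of them also a member.

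Among the 37 member probes, 1 rose and 1 fell in null lenses, namely a probe of Tinag and a probe of Sned1. They make up 5.41% of the member probes tested, beside 0.174% of all probes, but both genes were known from earlier work on these data when the members were listed, so the share is a description. The region before the start of each of these genes is printed here because they are the members that passed. Both sequences are the 250 bases upstream of the RefSeq start on GRCm38.p6, read 5′ to 3′ along the gene's own strand, with CG dinucleotides in capitals.
Tinag, chr9:77045782-77046031, minus strand: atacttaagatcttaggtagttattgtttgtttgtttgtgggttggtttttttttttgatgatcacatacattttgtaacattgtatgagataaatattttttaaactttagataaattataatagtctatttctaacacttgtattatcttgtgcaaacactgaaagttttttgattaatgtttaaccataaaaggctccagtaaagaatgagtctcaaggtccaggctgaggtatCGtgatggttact
Sned1, chr1:93235647-93235896, plus strand: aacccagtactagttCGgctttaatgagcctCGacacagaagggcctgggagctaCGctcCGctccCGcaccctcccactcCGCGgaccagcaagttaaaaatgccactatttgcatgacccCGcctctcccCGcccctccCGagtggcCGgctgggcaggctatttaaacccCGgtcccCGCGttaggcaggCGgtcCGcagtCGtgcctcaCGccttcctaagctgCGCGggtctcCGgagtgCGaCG
The Tinag region was AT-rich, with 28.8% G and C and 1 CG dinucleotide, and the Sned1 region was GC-rich, with 64% G and C and 23 CG dinucleotides. Over the 32851 promoters of the RefSeq table the medians of the same window were 52.4% and 6. The motif GGGCGG, searched on both strands, occurred in the Sned1 window 1 time, on the reverse strand as CCGCCC 119 bases before the start, and not in the Tinag window, while 32.7% of all promoters hold it. TATAAA (12.4% of all promoters), CCAAT (33.8%) and TGCTGA (16.1%), each searched on both strands, were in neither window. None of these motifs overlap each other in the windows shown, and a match or its absence says nothing here about which factor binds.

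Tinag, the tubulointerstitial nephritis antigen, is a basement membrane glycoprotein best known from the kidney tubule, where it binds laminin and collagen IV. Its probe ILMN_2608526 was at 5.53, 6.23 and 6.16 on null arrays 4, 5 and 6, and at 4.43, 4.27 and 4.32 on heterozygous arrays 1, 2 and 3. All 3 null values lay above the 3 heterozygous ones, and the probe was detected on 3 of 3 null arrays and on 0 of 3 heterozygous arrays. On these arrays its null mean was thus at least 2.26-fold higher, a bound taken from the dimmest probe still detected on each heterozygous array. That bound carries no sampling error, so it describes these arrays only. The fitted difference was 1.64 ± 0.24 (SE, 95% interval 1.10 to 2.18, limma adjusted p = 0.0445). The bound lay between 2.07 without null array 5 and 2.64 without null array 4. It depends on the background correction: without one the same bound was 1.48, with a fitted fold of 1.79 in place of 3.11, and with an offset of 50 it was 1.58. This probe entered the test through its null values alone, so it had to differ to be tested at all. Probe ILMN_1248959 of the same gene was at 6.72, 7.47 and 7.43 on null arrays 4, 5 and 6, and at 5.43, 4.61 and 5.80 on heterozygous arrays 1, 2 and 3, where 2 of 3 detected it. These groups did not overlap either, and the difference of 1.93 ± 0.34 (95% interval 1.17 to 2.69) missed the threshold (limma adjusted p = 0.0737). On both probes the lowest of the null values came from null array 4 and the lowest of the heterozygous values from heterozygous array 2.

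Sned1 encodes a secreted matrix protein with sushi, nidogen and EGF-like domains. Its probe ILMN_2582996 was at 6.63, 5.65 and 6.58 on null arrays 4, 5 and 6, and at 8.41, 8.17 and 8.75 on heterozygous arrays 1, 2 and 3. The groups did not overlap, and null array 5 was the lowest. The level was 4.45-fold lower in null lenses (difference −2.16 ± 0.30, SE; 95% interval −2.84 to −1.47; limma adjusted p = 0.0389), and the probe was detected on all 6 arrays. Of the other Sned1 probes, ILMN_2772334 and ILMN_1226009, neither was detected on any array, so the change rests on 1 probe. In a whole-lens sample, fewer cells of a type and less RNA per cell cannot be told apart, for Sned1 as for every member.

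**Figure D1:**
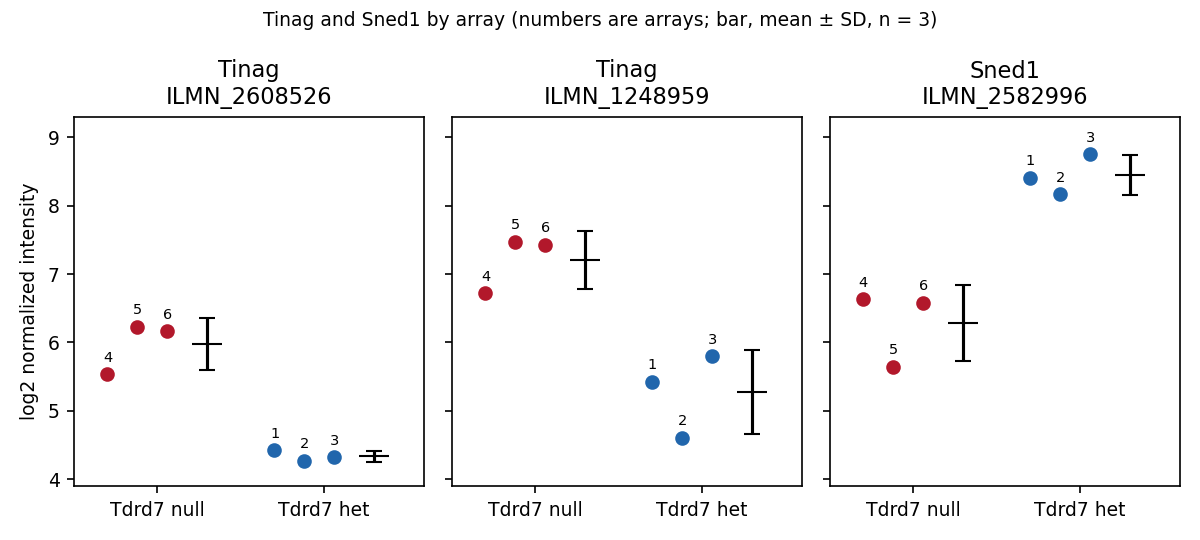
Log2 normalized intensity of the Tinag probes and the detected Sned1 probe, each point 1 array with its number beside it, null on the left and heterozygous on the right, with the mean and SD (n = 3) as bars. Null points lie above all heterozygous points for both Tinag probes, and below all of them for Sned1.

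Neither call held under most other ways of processing the data, although no alternative turned its direction. Tinag ILMN_2608526 passed in 3 of the 14 alternatives in which it was tested (limma adjusted p from 0.00487 to 0.267) and Sned1 in 5 of 15 (from 0.00147 to 0.423). Sned1 passed without heterozygous array 2 (adjusted p = 0.0450) and missed without heterozygous array 1 (0.136), heterozygous array 3 (0.150), null array 4 (0.0561), null array 5 (0.0569) and null array 6 (0.133). Tinag ILMN_2608526 passed without null array 4 (0.0360) and missed without heterozygous array 1 (0.136), heterozygous array 2 (0.0674), heterozygous array 3 (0.167), null array 5 (0.116) and null array 6 (0.213). Without both arrays that stood apart, all 3 probes passed: Tinag ILMN_2608526 differed by 1.49 (0.0310), Tinag ILMN_1248959 by 1.49 (0.0453) and Sned1 by −2.01 (0.00509). With the replicate number of the labels as a block, on the authors' series matrix values, Sned1 passed (−1.63, adjusted p = 0.0280) and Tinag ILMN_2608526 did not (0.82, adjusted p = 0.104). The same values without the block gave 0.0635 for Sned1 and 0.115 for Tinag ILMN_2608526.

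**Figure D2:**
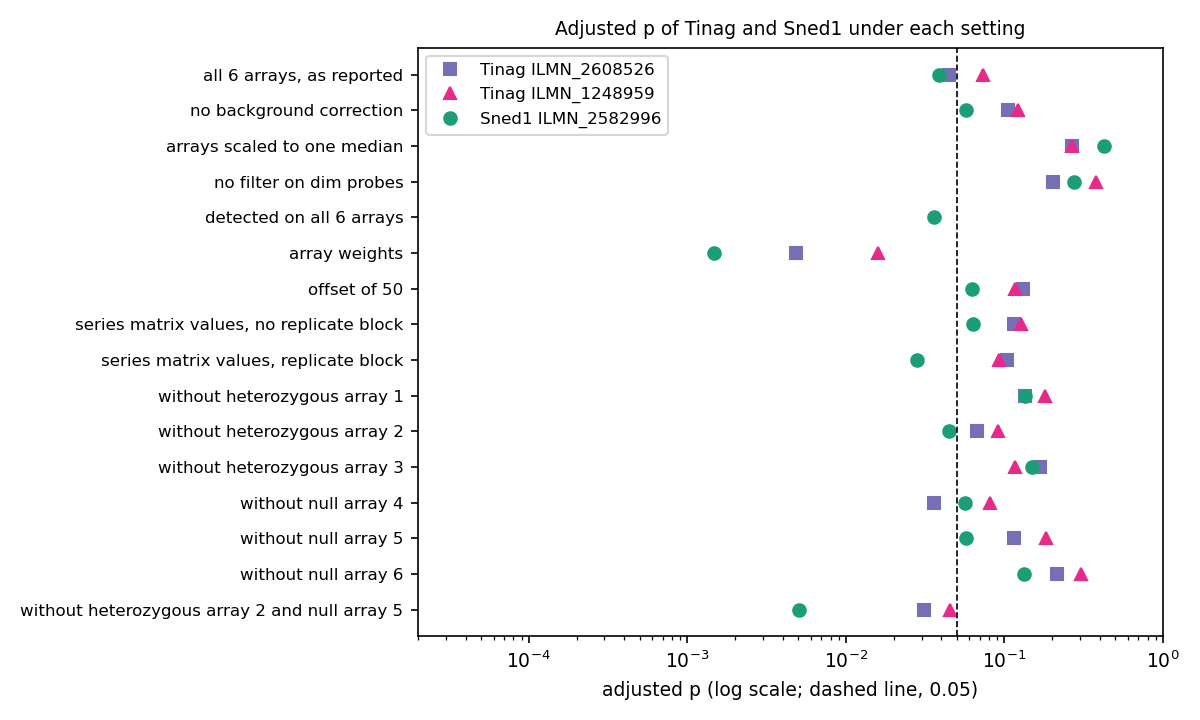
Adjusted p, on a log axis, of the Tinag probes and of Sned1 under the reported setting and each alternative, with the threshold of 0.05 as a dashed line. Sned1 lies left of the line in the reported setting and in 5 alternatives, and Tinag ILMN_2608526 in the reported setting and in 3. The row for probes detected on all 6 arrays holds Sned1 alone, since the Tinag probes do not meet that filter.

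Tinagl1, a secreted relative of Tinag, did not pass on either of its tested probes. Probe ILMN_2976129 was at 5.57, 6.03 and 6.01 on null arrays 4, 5 and 6 and at 6.39, 4.43 and 5.95 on heterozygous arrays 1, 2 and 3, a difference of 0.28 ± 0.44 (limma adjusted p = 0.904), with null values inside the range of the heterozygous ones. Probe ILMN_2760619 was at 5.20, 5.16 and 5.13 on the null arrays and at 5.18, 4.37 and 4.73 on the heterozygous arrays, a difference of 0.40 ± 0.24 (adjusted p = 0.711). On both probes heterozygous array 2 was the lowest of the 6 arrays, and without it ILMN_2976129 differed by −0.31. Nephronectin, the product of Npnt and a ligand of the integrin α8β1, was not detected on any array by either of its probes. Lama4, Nid2, Col15a1, Fras1 and Frem1 were likewise not detected on any array by any of their probes, 5 of them for Lama4. Absence of detection gives only a bound set by the background, and for the Fraser complex, in which Fras1, Frem1 and Frem2 anchor epithelium to matrix, no member could be tested.

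Collagen IV chains are the structural core of the capsule, and all 6 of them were detected on all 6 arrays. Col4a1 and Col4a2, whose products form the most widespread collagen IV trimer, have RefSeq starts 21 bases apart on opposite strands of chromosome 8. Col4a1 was at 12.98, 12.79 and 12.83 on null arrays 4, 5 and 6 and at 13.14, 12.02 and 12.50 on heterozygous arrays 1, 2 and 3. Its null values lay inside the heterozygous range, with a difference of 0.31 ± 0.29 (95% interval −0.33 to 0.96, limma adjusted p = 0.815). Col4a2 was at 11.86, 11.92 and 12.15 on the null arrays and at 12.56, 11.16 and 11.86 on the heterozygous arrays, a difference of 0.12 ± 0.33 (−0.62 to 0.86, adjusted p = 0.954). Both genes were highest on heterozygous array 1 and lowest on heterozygous array 2, and the SD of the null arrays was 0.10 for Col4a1 and 0.15 for Col4a2, against 0.56 and 0.70 on the heterozygous arrays.

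Col4a3, Col4a4, Col4a5 and Col4a6 encode the chains of the other collagen IV trimers, those of the kidney glomerulus and of some epithelia. Col4a3 was at 8.61, 8.38 and 9.01 on null arrays 4, 5 and 6 and at 8.80, 8.07 and 8.76 on heterozygous arrays 1, 2 and 3 (difference 0.13 ± 0.27, limma adjusted p = 0.936). Col4a5, on probe ILMN_2437848, was at 10.19, 9.35 and 9.80 on the null arrays and at 10.46, 8.58 and 9.63 on the heterozygous arrays (0.22 ± 0.43, adjusted p = 0.928). For both genes the groups overlapped and heterozygous array 2 was the lowest. The 3 Col4a4 probes differed by 0.21 ± 0.50, 0.23 ± 0.34 and 0.36 ± 0.45, the other Col4a5 probe by 0.21 ± 0.26, and the tested Col4a6 probes by 0.25 ± 0.26 and 0.46 ± 0.33 (limma adjusted p from 0.758 to 0.944). Of the Col4a4 probes, ILMN_1228314 and ILMN_2983387 were lowest on heterozygous array 2, at 6.69 and 7.07, while ILMN_2679871 was lowest on heterozygous array 3, at 5.20, so the probes of 1 gene did not follow the same order of arrays. All 10 collagen IV probes tested had a difference above 0, and 0 passed (0 also at an unadjusted p under 0.05). Without heterozygous array 2, 2 of the 6 genes were above 0 and 4 below, and 4 were above and 2 below without null array 6 and also with array weights, so the common direction did not hold under these changes.

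Laminins are trimers of an α, a β and a γ chain. Lama1, the α chain of the laminin prominent in the lens capsule, was at 8.04, 7.40 and 8.54 on null arrays 4, 5 and 6 and at 8.62, 8.10 and 8.93 on heterozygous arrays 1, 2 and 3, a difference of −0.56 ± 0.33 (95% interval −1.29 to 0.18, limma adjusted p = 0.696). Null array 5 was the lowest, and null array 6 lay among the heterozygous values. Lama2, the α chain of muscle and nerve laminin, was at 6.73, 6.42 and 6.87 on the null arrays and at 7.31, 7.36 and 6.88 on the heterozygous arrays. Its groups did not overlap, by a margin of less than the spread within either group, and limma gave −0.51 ± 0.23, short of the threshold (adjusted p = 0.584). Lama1 and Lama2 kept their sign in all 15 alternatives, from −0.82 to −0.10 and from −0.66 to −0.11, and passed in none of them (lowest limma adjusted p 0.153 and 0.350). Lama5, the α chain of many adult epithelial basement membranes, differed by −0.03 ± 0.20, with a 95% interval of −0.48 to 0.41.

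The β and γ chains gave differences of either sign. Lamc1, the γ chain shared by most laminins, had 1 probe that differed by −0.06 ± 0.51 and 1 that differed by 0.24 ± 0.25. The probe with the negative difference, ILMN_2774596, was at 7.32, 6.36 and 7.74 on null arrays 4, 5 and 6 and at 8.16, 6.12 and 7.32 on heterozygous arrays 1, 2 and 3, so that both arrays that stood apart were low. Lamb1 and Lamb2, alternative β chains, differed by −0.11 ± 0.29 and 0.18 ± 0.23 (limma adjusted p = 0.948 and 0.879). Lamb3, the β chain of the laminin of epithelial hemidesmosomes, was at 4.90, 4.98 and 4.76 on null arrays 4, 5 and 6 and at 4.58, 4.22 and 4.45 on heterozygous arrays 1, 2 and 3. The groups did not overlap and the probe was detected on 3 of 3 null and 0 of 3 heterozygous arrays, yet all its values lay close to background. On these arrays its null mean was at least 1.06-fold higher, a bound without sampling error. The difference did not pass (0.46 ± 0.21, 95% interval 0.0024 to 0.93, limma adjusted p = 0.570). Lamb3, too, was tested only because of its null values. Of the 7 laminin genes tested, 2 were above 0 and 5 below, and 0 passed. That split was 4 above and 3 below without heterozygous array 1, without null array 5 and with arrays scaled to one median.

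The linkers hold the networks together. Nidogen 1, the product of Nid1, bridges laminin and collagen IV, and its probe ILMN_2814005 was at 10.13, 10.36 and 10.61 on null arrays 4, 5 and 6 and at 10.21, 9.77 and 10.18 on heterozygous arrays 1, 2 and 3. That difference was 0.32 ± 0.23 (95% interval −0.20 to 0.83, limma adjusted p = 0.765), and probe ILMN_2560756 gave 0.49 ± 0.29 (adjusted p = 0.691), with overlapping groups on both. Perlecan, the large heparan sulphate proteoglycan encoded by Hspg2, differed by −0.08 ± 0.26 and −0.21 ± 0.32 on its 2 probes. The heparan sulphate proteoglycan agrin and the precursor of endostatin, collagen XVIII, showed the widest spread among heterozygous arrays. Agrn was at 7.04, 7.05 and 7.59 on null arrays 4, 5 and 6 and at 7.82, 4.64 and 7.39 on heterozygous arrays 1, 2 and 3, and Col18a1 was at 6.33, 5.97 and 7.50 on the null arrays and at 7.62, 4.77 and 7.02 on the heterozygous arrays. Each was close to background and not detected on heterozygous array 2 and was detected on the other 5 arrays. Agrn differed by 0.61 ± 0.69 and Col18a1 by 0.13 ± 0.67 (limma adjusted p = 0.861 and 0.977), and without heterozygous array 2 by −0.38 and −0.73.

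Sparc, a collagen-binding matrix protein whose loss causes cataract in mice, gave different values on its 3 probes. ILMN_3059326 was at 11.27, 12.27 and 11.72 on null arrays 4, 5 and 6 and at 11.87, 11.76 and 11.67 on heterozygous arrays 1, 2 and 3 (difference −0.01 ± 0.27, 95% interval −0.62 to 0.60), and ILMN_3136561 differed by 0.08 ± 0.25. ILMN_1243212 was at 6.18, 8.24 and 9.18 on the null arrays and at 9.86, 8.31 and 9.16 on the heterozygous arrays. That probe differed by −1.24 ± 0.68, short of the threshold (limma adjusted p = 0.659), and by −0.40 without null array 4, the lowest of the 6. All 3 Sparc probes were lowest among null arrays on array 4, by different amounts.

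Receptors tie cells to the capsule. Dag1 encodes dystroglycan, a laminin receptor, and its probe ILMN_2724585 was at 8.91, 8.33 and 9.54 on null arrays 4, 5 and 6 and at 9.45, 7.78 and 9.17 on heterozygous arrays 1, 2 and 3, with overlapping groups and a difference of 0.13 ± 0.45 (limma adjusted p = 0.965). The other Dag1 probe differed by 0.00 ± 0.42. Integrin α6, encoded by Itga6, pairs with β1 or β4 to bind laminin, and its detected probe was at 7.76, 7.85 and 7.10 on the null arrays and at 7.51, 7.33 and 6.83 on the heterozygous arrays (0.35 ± 0.28, adjusted p = 0.794). Itgb1, the common integrin β chain, was at 5.83, 5.14 and 5.65 on null arrays 4, 5 and 6 and at 5.53, 4.71 and 4.72 on heterozygous arrays 1, 2 and 3, detected on 3 of 3 null and 1 of 3 heterozygous arrays (0.55 ± 0.29, adjusted p = 0.650). Itgb4, the hemidesmosome integrin chain, was detected by its tested probe ILMN_3144575 on 2 of 3 null and 1 of 3 heterozygous arrays and differed by 0.14 ± 0.21 (adjusted p = 0.901). Itga6 and Itgb1 kept a difference above 0 in all alternatives in which they were tested, and passed in none.

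Of the 26 member probes that were not tested, 22 were detected on no array. These are the 13 probes of the 6 undetected genes and 9 further probes, namely 2 each of Col4a6, Itga6 and Sned1 and 1 each of Lama2, Col18a1 and Tinagl1. The other 4 were detected on 1 or 2 arrays. Itgb1 ILMN_2609304 was detected on 2 of 3 null and 0 of 3 heterozygous arrays and Itgb4 ILMN_2634689 on 1 of 3 null and 0 of 3 heterozygous arrays. Lama2 ILMN_2565522 and Col18a1 ILMN_2937542 were each detected on 0 of 3 null and 1 of 3 heterozygous arrays.

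**Figure D3:**
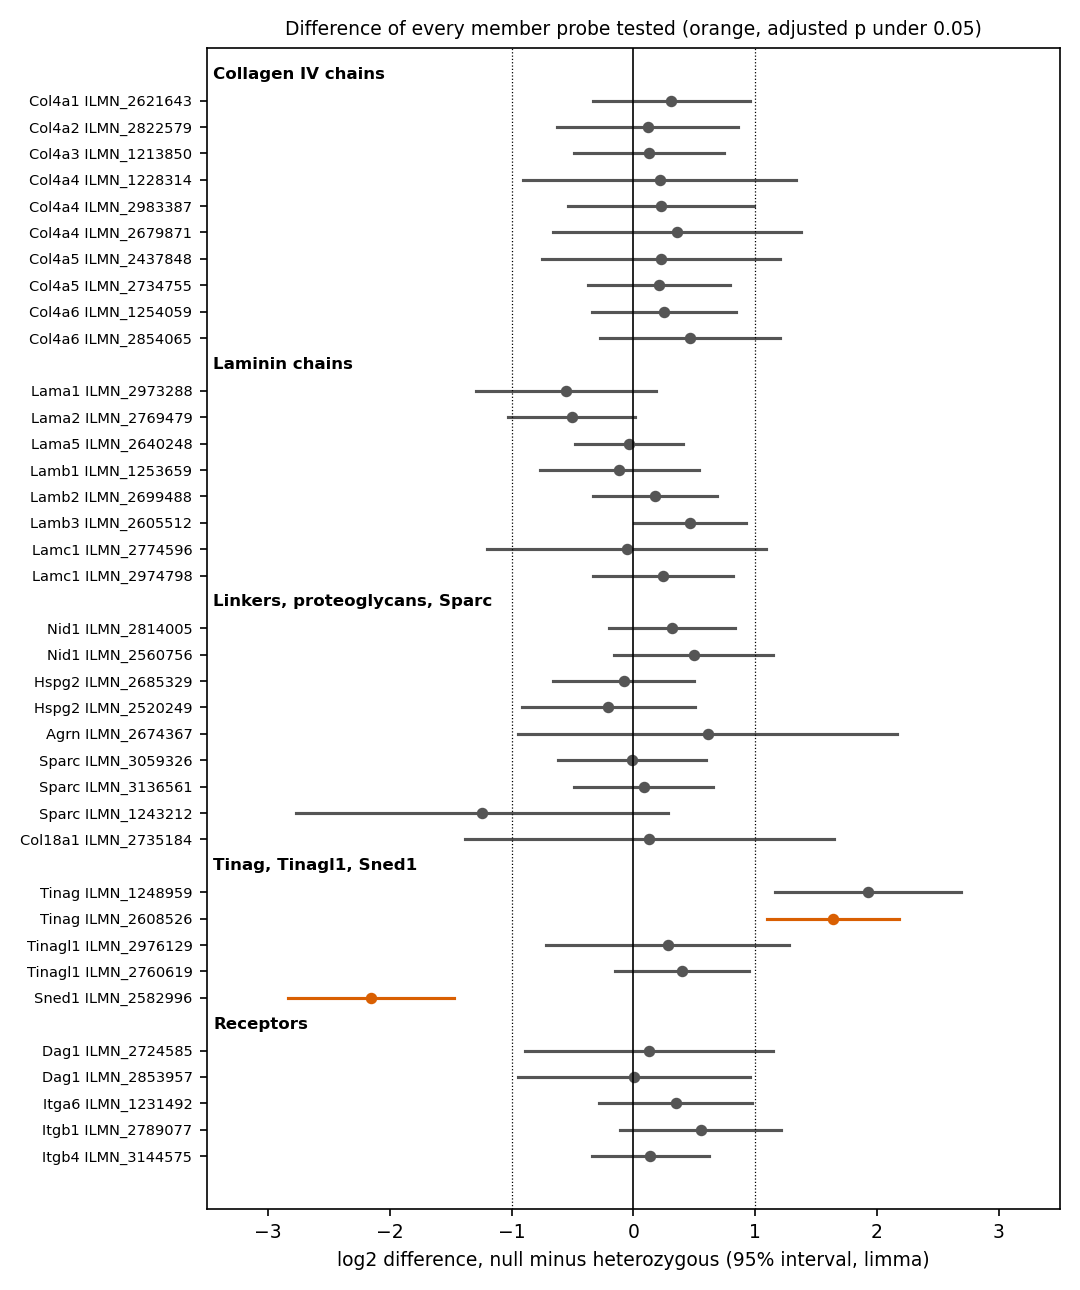
Null minus heterozygous log2 difference with its 95% interval for each of the 37 member probes tested, grouped by role, with dotted lines at −1 and 1. The orange points, 1 probe of Tinag and 1 of Sned1, have an adjusted p under 0.05, and 20 of the 37 intervals lie wholly between the dotted lines.

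Across the members, 4 of 37 probes had an unadjusted p under 0.05 (both tested Tinag probes, Sned1 and Lamb3), or 10.8%, where 8.7% of all probes tested did. The genotypes had separate ranges for 5 of 37 (Tinag on both probes, Lamb3, Lama2 and Sned1), or 13.5%, where 15.3% of all probes tested had. These shares were close to those of the whole array. For 20 of the 37 probes the 95% interval lay within a 2-fold change in either direction. The 20 include probes close to background, where a narrow interval does not bound the change. Such were Lamb3, detected on 0 of 3 heterozygous arrays, and Itgb4 ILMN_3144575, detected on 2 of 3 null and 1 of 3 heterozygous arrays. Of the 35 that did not pass, 15 had an interval that reached past 2-fold, so these arrays do not bound the change below that size for them. Among the 15, the interval of Tinag ILMN_1248959 lay wholly above 2-fold. The lowest adjusted p outside Tinag and Sned1 was 0.570, that of Lamb3. Of the 10 genes with more than 1 tested probe, the probes had differences of the same sign for 8, the exceptions being Lamc1 and Sparc.

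With 1 probe a gene, that with the highest mean, 17 of the 25 tested genes were above 0 and 8 below. Of all 8944 genes tested 53.3% were above 0. The members' median difference was 0.14, beside 0.02 over all genes tested. The members' direction turned when 1 heterozygous array was left out. On heterozygous array 2, 17 of 25 genes, or 68%, had the lowest of their 6 values, where 32% of all genes tested did. By role these were 5 of 6 collagen IV genes, 3 of 7 laminin genes, 4 of 5 linkers with Sparc, 2 of 3 among Tinag, Tinagl1 and Sned1, and 3 of 4 receptors. Heterozygous array 1 was the highest for 10 of the 25, and was the lowest for 0. Relative to the heterozygous mean of each gene, the members' mean was 0.11, −0.04 and 0.27 on null arrays 4, 5 and 6 and 0.45, −0.54 and 0.09 on heterozygous arrays 1, 2 and 3. Their median on the same arrays was 0.13, 0.11 and 0.28 and 0.34, −0.45 and 0.04, so mean and median differed in sign on null array 5. Over all genes tested that median ran from −0.04 to 0.03. Without heterozygous array 2 the members' median difference was −0.22, with 9 genes above 0 and 16 below, so no common direction of these genes in null lenses can be read from the 6 arrays.

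**Figure D4:**
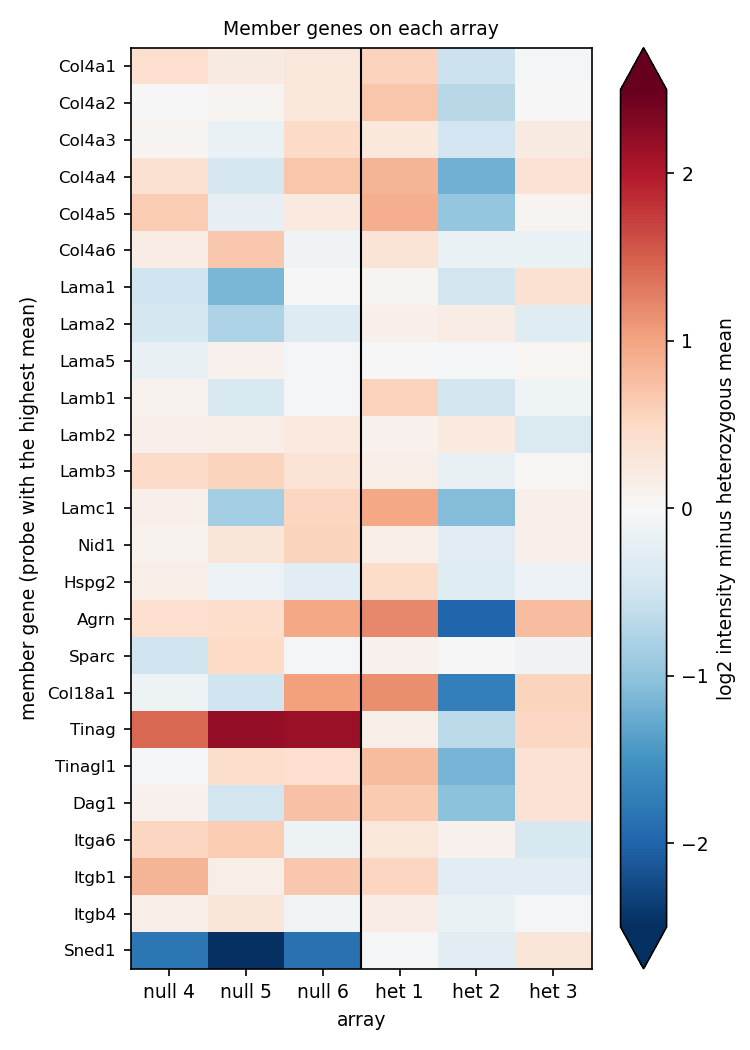
Log2 intensity minus the heterozygous mean (colour) for the 25 tested member genes on each of the 6 arrays, null arrays left of the line and heterozygous arrays right of it. The column of heterozygous array 2 is below 0 for most genes, and only the Tinag and Sned1 rows separate strongly by genotype.

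**Figure D5:**
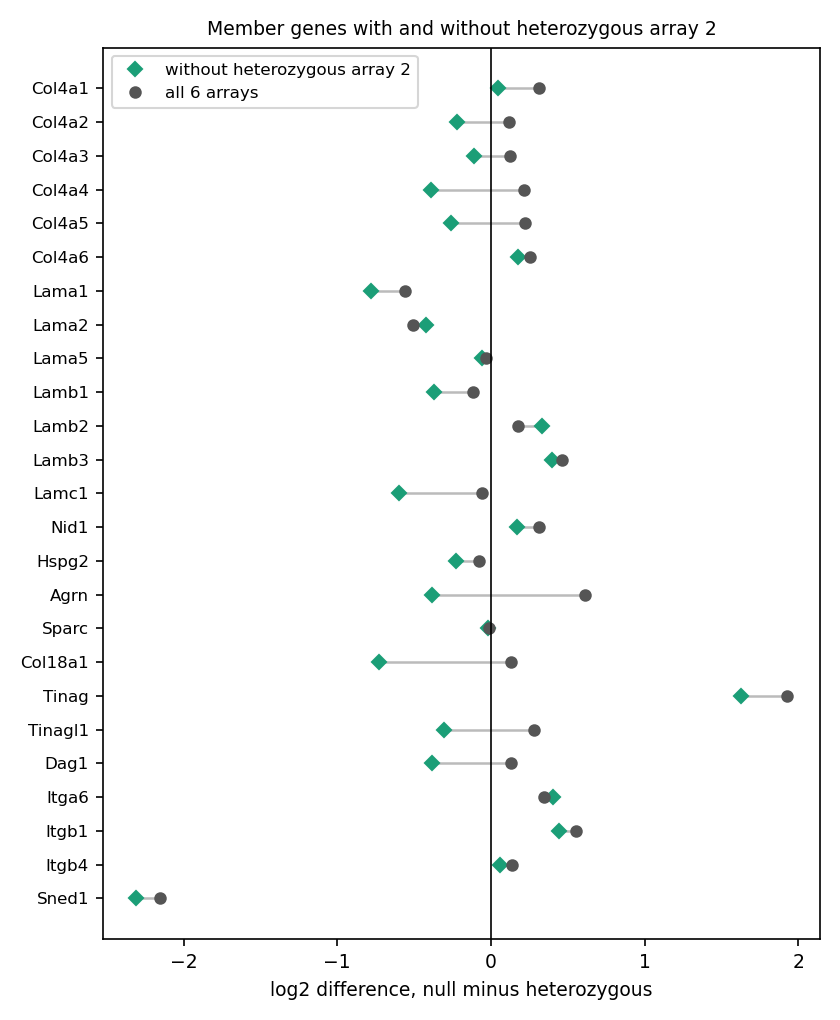
Null minus heterozygous log2 difference of each tested member gene without heterozygous array 2 (diamonds) and with all 6 arrays (circles). The median moves to −0.22 without that array, against 0.14 with all arrays, while Tinag stays above 1 and Sned1 below −1.

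Markers of several cell types were low with the members on heterozygous array 2. Relative to the heterozygous mean, lens epithelium markers, which mark the main source of the anterior capsule, averaged 0.11, 0.39 and 0.34 on null arrays 4, 5 and 6 and 0.32, −0.50 and 0.18 on heterozygous arrays 1, 2 and 3. These averages cover opposite differences between the groups. Of the 12 epithelium genes tested 9 were above 0 and 3 below, with a median of 0.08. Sfrp1 differed by −1.86 and Aqp1 by 1.75 (limma adjusted p = 0.154 and 0.475). Of the corneal epithelium markers 3 of 8 with a probe were tested, namely Aldh3a1, Tkt and Col17a1. Krt12, Krt5, Krt14 and Dsg1a were detected on no array, so the average of this list rests on few genes and may not reflect corneal epithelium. It was 0.09, −1.26 and 0.50 on the null arrays and 0.91, −1.62 and 0.72 on the heterozygous arrays, low on both arrays that stood apart. Stromal fibroblast markers, of which 3 of 13 were tested, averaged −1.27 on heterozygous array 2, and ciliary non-pigmented epithelium markers −0.47. Retinal markers went the other way there, at 0.74, and pigment cell markers did too, at 0.47. On null arrays 4, 5 and 6 retinal markers averaged 0.69, 0.37 and 0.38, and on heterozygous arrays 1 and 3 they averaged −0.90 and 0.16. Of the 12 retinal genes tested 11 were above 0 and 1 below, with 0 past the threshold. Lens fibre markers averaged −0.15, −0.24 and −0.26 on the null arrays and −0.07, 0.12 and −0.04 on the heterozygous arrays. Of the 13 fibre genes tested 1 was above 0 and 12 below, with a median of −0.22 and 0 past the threshold. Of all genes tested 53.3% were above 0. The part of these cells in the members' levels was not tested.

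Summed marker intensities often rested on 1 gene. Stromal fibroblast markers summed to 746 to 886 on null arrays and 416 to 981 on heterozygous arrays, of which Pdgfra alone gave 429 to 554 on null arrays and 23.8 to 671 on heterozygous arrays, and Lum, Kera, Postn and Col5a2 were detected on no array. Vascular endothelium markers summed to 631 to 764 on null arrays and 540 to 621 on heterozygous arrays. That difference came with Egfl7: without it the sums were 251 to 259 on null arrays and 263 to 306 on heterozygous arrays. Of the 3 vascular genes tested, Egfl7 included, 1 was above 0 and 2 below, and 7 of the 12 markers, Pecam1 and Cdh5 among them, were detected on no array. Muscle markers summed to 20946 to 25990 on null arrays and 12543 to 17202 on heterozygous arrays, of which smooth muscle actin, Acta2, gave all but 686 to 800 on null arrays and 584 to 781 on heterozygous arrays, and 8 of the 14 were detected on no array (Acta1, Myh1, Myh4, Tnnt3, Tnni2, Myh11, Cnn1 and Tagln). Pigment cell markers summed to 1196 to 3904 on null arrays and 421 to 1038 on heterozygous arrays, with 4 of 12 detected on no array (Tyr, Mlana, Rlbp1 and Mitf). Among them Gpnmb, a gene of pigment cells that macrophages also express, rose on probe ILMN_2648669 to 10.81 ± 1.21 in null lenses, against 5.23 ± 0.55 in heterozygous lenses (SD, n = 3 each; difference 5.58, limma adjusted p = 0.00997). Gpnmb probe ILMN_2614655 was detected on 3 of 3 null and 0 of 3 heterozygous arrays and did not pass (limma adjusted p = 0.202). Its null mean was at least 4.32-fold higher on these arrays, and it entered the test through its null values alone. Without Gpnmb the pigment sums were 378 to 493 on null arrays and 379 to 986 on heterozygous arrays, and 5 of the 7 tested pigment genes were below 0.

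Leucocyte and macrophage markers averaged 0.78, 2.97 and 1.52 on null arrays 4, 5 and 6 and −0.03, 0.05 and −0.02 on heterozygous arrays 1, 2 and 3. Of their 11 tested genes 10 were above 0, with 0 past the threshold. Of their 13 tested probes 10 had an unadjusted p under 0.05 (limma), where 8.7% of all probes tested did. Among these genes Lyz2, C1qb, C1qc, Fcer1g and Cd14 were detected on 3 of 3 null and 0 of 3 heterozygous arrays. They entered the test through their null values alone, so they had to differ to be tested, which weighs on these counts and averages. The summed intensity of all the markers ran from 686 to 5701 on null arrays and from 396 to 427 on heterozygous arrays. Without Lyz2, the brightest marker, it ran from 601 to 3963 on null arrays and from 374 to 408 on heterozygous arrays. Ptprc, Itgam and Cx3cr1 of the 17 with a probe were detected on no array. Null array 5, the highest for these markers, also had the highest Tinag values and the lowest Sned1 value. The part of these cells in the Tinag and Sned1 results was not tested.

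Other genes of the matrix were read from lists beside the members. Over all genes tested, 53.3% were above 0 and the median was 0.02. Relative to the heterozygous mean, these lists were low on heterozygous array 2, as the members were. The averages there were −0.61 for further basement membrane genes, −0.29 for receptors, −0.20 for collagen enzymes, −0.38 for proteases and inhibitors and −0.31 for zonule fibre genes. The directions of these lists without that array were not tested. Of 25 further basement membrane genes 20 had a probe and 7 were tested, with 0 past the threshold, 4 above 0 and 3 below (median 0.16). The smallest p among them was that of Ecm1, an extracellular matrix protein, averaging 6.11 ± 0.96 in null lenses and 5.01 ± 0.50 in heterozygous lenses (SD, n = 3 each; difference 1.10, limma adjusted p = 0.526). Papln, which encodes papilin, was detected on 0 of 3 null and 3 of 3 heterozygous arrays. On these arrays its null mean was at least 1.17-fold lower, a bound without sampling error. The difference of −0.41 ± 0.20 (SE) did not pass (limma adjusted p = 0.611). Of 33 collagen and laminin receptors and their partners 20 were tested, with 0 past the threshold and a median of 0.29. Syndecan 3, a heparan sulphate proteoglycan of the cell surface encoded by Sdc3, was at 8.24 ± 0.64 in null lenses and 7.17 ± 0.18 in heterozygous lenses (difference 1.07, adjusted p = 0.323). Plectin, the linker of integrin β4 to keratin encoded by Plec, was at 4.69 ± 0.11 in null lenses and 5.20 ± 0.18 in heterozygous lenses (difference −0.51, adjusted p = 0.522).

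Enzymes that fold and cross-link collagen gave 18 tested genes of 22 listed, 12 above 0 and 6 below, with 0 past the threshold. Plod2, a lysyl hydroxylase of collagen, had the smallest p on both of its probes shown, with differences of 0.70 ± 0.25 and 1.22 ± 0.45 (limma adjusted p = 0.445 and 0.473). Matrix proteases and their inhibitors gave 19 tested genes of 30 listed, of which 1 rose and 0 fell. The gene that rose was Mmp12, the macrophage elastase, detected on 3 of 3 null and 0 of 3 heterozygous arrays (limma adjusted p = 0.0262). On these arrays its null mean was at least 5.96-fold higher, an increase that was already known when the list was made. Plau, the urokinase plasminogen activator, shared that detection pattern, with a null mean at least 1.40-fold higher on these arrays, without passing (limma adjusted p = 0.351). Mmp12 and Plau entered the test through their null values alone, and Papln through its heterozygous values alone, so each had to differ to be tested. Zonule fibre genes, which encode the fibrils that insert into the capsule, gave 7 tested genes of 13 listed, 3 above 0 and 4 below, with 0 past the threshold. Mfap4, a microfibril-associated glycoprotein, was at 7.18 ± 1.12 in null lenses and 6.43 ± 0.42 in heterozygous lenses (SD, n = 3 each, limma adjusted p = 0.731). Ltbp1, a fibrillin-binding protein that holds latent TGF-β, averaged 4.81 ± 0.33 in null lenses and 5.21 ± 0.28 in heterozygous lenses (adjusted p = 0.721).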

How the data were processed

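Per the labels' protocols, total lens RNA was extracted with a Qiagen kit and labelled as biotinylated cRNA for Illumina arrays. No source used here names the scanner or its software. The authors deposited 1 unnormalized intensity per probe and array, with a detection p-value beside it, per the file headers. The raw headers give each array its group and no replicate number. The authors' series matrix holds intensity values rescaled by an unknown method, on a linear scale with no gene centring, used only as an alternative.

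Intensities were processed with neqc of limma 3.58.1 in R 4.3.3 (normexp with controls inferred from detection p-values, offset 16, quantile) and log2-transformed. Probes with a detection p under 0.05 on 3 or more of the 6 arrays entered the fit (lmFit, eBayes, Benjamini-Hochberg adjustment). The fit was tested on simulated data with independent errors for each probe, so that test does not cover shifts shared by a whole array. Gene names came from the platform annotation, in which 34885 probes have 1 gene, 18 several and 10378 none. Every tested member probe is described, and of the other matrix lists the members past the threshold or the 2 probes with the smallest p. Marker lists are given by their levels and undetected genes, with the brightest gene of a list, chosen after values were seen, where the sum rests on it. Members, lists, tests and alternatives were chosen with earlier results of these data known. Promoters are RefSeq's (24 members matched). On series matrix values, deviations of samples with the same replicate number correlated at 0.11, 0.37 and 0.58 for numbers 1, 2 and 3. Unequal numbers gave −0.45 to 0.16. The 0.16, of null 3 with heterozygous 1, was above the 0.11 of number 1, so number 1 did not stand out. The numbers were taken as pairs from these same values, so the block is given only as an alternative. With 3 arrays a group the number of arrays limits the precision, and an exact permutation test of single values could not go below 0.1.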

Additional observations from a re-analysis of the deposited data

How the results depend on the processing

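All alternatives were recomputed over the whole table. The count of probes past the threshold was 26 as reported (7 higher and 19 lower), 9 with no background correction (4 and 5), 3 with arrays scaled to one median (2 and 1), 0 with no filter on dim probes (limma, 2759 at an unadjusted p under 0.05), 261 with array weights (118 and 143), 14 with an offset of 50 (6 and 8), 9 on the series matrix values without the replicate block (4 and 5), 35 with it (12 and 23) and 111 without heterozygous array 2 and null array 5 (53 and 58), and it ran from 2 to 30 when single arrays were left out. The cause of these changes was not tested, and the settings that leave arrays out also have fewer arrays. Tdrd7 kept its direction throughout (from −4.09 to −3.65) and missed only with no filter (−3.88, adjusted p = 0.120). Member probes past the threshold were 1 higher and 1 lower as reported. The higher count was 0 with no background correction, median scaling, no filter, all 6 arrays detected (where Tinag is not tested), an offset of 50 and the series matrix values with or without the block, 2 with array weights or without both arrays, and 0 to 1 with single arrays left out. The lower count was 0 with no background correction, median scaling, no filter, an offset of 50 and the series matrix values without the block, and 0 to 1 with single arrays left out. Of 37 member probes 16 kept their sign throughout, and 0 besides Tinag and Sned1 ever passed. The replicate block changed no other member's call.

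The members' median of 0.14 was 0.39 with median scaling, where the median of all genes was 0.32, 0.21 with all tested probes of a gene, −0.01 with array weights, −0.09 without both arrays and −0.22 to 0.42 with single arrays left out. Heterozygous array 2 was the lowest for 17 of 25 genes (32% of all genes) also with no background correction, and for 22 of 25 (64.9%) with median scaling, settings chosen for this after seeing the data. The bound of 2.26-fold for Tinag was 1.48 with no background correction, 1.58 with an offset of 50 and 2.60 with median scaling, alternatives also chosen after seeing the data. Signs changed for probes that did not pass. Median scaling gave 0.27 for Lama5, 0.31 for Lamc1 ILMN_2774596, 0.35 and 0.21 for Hspg2 and 0.24 for Sparc ILMN_3059326. Array weights gave −0.0115 for Col4a2, −0.0118 for Col4a4 ILMN_1228314, −0.0847 for Agrn, −0.0513 for Sparc ILMN_3136561, −0.31 for Col18a1, −0.16 for Tinagl1 ILMN_2976129 and −0.0926 and −0.33 for Dag1. Dag1 ILMN_2853957 was at −0.0134 with no background correction, −0.0102 with an offset of 50 and −0.0141 on the series matrix values with or without the block, where Col18a1 was at −0.0057. Without both arrays the values were −0.20 for Col4a2, −0.0683 for Col4a4 ILMN_1228314, −0.0429 for Col4a5 ILMN_2437848, −0.0345 for Col4a6 ILMN_1254059, −0.30 for Agrn, −0.17 for Sparc ILMN_3136561, −0.41 for Col18a1, −0.39 for Tinagl1 ILMN_2976129, −0.0886 and −0.23 for Dag1 and −0.0302 for Itgb4.
With single arrays left out, the ranges that cross 0 were −0.37 to 0.16 for Lamb1 ILMN_1253659, −0.60 to 0.42 for Lamc1 ILMN_2774596, −0.23 to 0.15 for Hspg2 ILMN_2685329, −0.27 to 0.24 for Sparc ILMN_3059326, −0.22 to 0.47 for Col4a2 ILMN_2822579, −0.11 to 0.27 for Col4a3 ILMN_1213850, −0.39 to 0.64 for Col4a4 ILMN_1228314, −0.12 to 0.57 for Col4a4 ILMN_2983387, −0.26 to 0.68 for Col4a5 ILMN_2437848, −0.0289 to 0.42 for Col4a5 ILMN_2734755, −0.38 to 1.18 for Agrn ILMN_2674367, −0.11 to 0.27 for Sparc ILMN_3136561, −0.73 to 0.68 for Col18a1 ILMN_2735184, −0.31 to 0.65 for Tinagl1 ILMN_2976129, −0.38 to 0.46 for Dag1 ILMN_2724585, −0.47 to 0.30 for Dag1 ILMN_2853957, −0.12 to 0.66 for Col4a4 ILMN_2679871, −0.11 to 0.0377 for Lama5 ILMN_2640248 and −0.50 to 0.0753 for Hspg2 ILMN_2520249.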
